A study of Homo sapiens with 6 samples.

Results

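Condensins are ring-shaped protein complexes that extrude loops of DNA and fold the chromosomes for mitosis. The ATPases SMC2 and SMC4 form the core of both complexes. Condensin I adds the kleisin NCAPH with the HEAT-repeat subunits NCAPD2 and NCAPG, and condensin II adds NCAPH2 with NCAPD3 and NCAPG2. Condensin II is nuclear throughout the cell cycle, whereas condensin I mostly reaches the chromosomes once the nuclear envelope has broken down. The subunits are needed by dividing cells such as leukaemic blasts, and the transcripts of several of them are known to accumulate towards mitosis.

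The 8 subunit genes were chosen by symbol, and every probe set naming 1 of them alone was taken, which gave 16 of the 54613 probe sets tested. RNA came from OCI-AML3, a human acute myeloid leukaemia line with an NPM1 mutation, after 24 h in either the solvent DMSO (3 samples) or 1 μM Vorinostat, an inhibitor of histone deacetylases (3 samples). Each sample was hybridised to an Affymetrix HG-U133 Plus 2.0 array. A probe set on it is a group of short probes for 1 or several transcripts. The samples carry the replicate numbers 1, 2 and 3 in both groups, and all are of 1 cell line. No source used here says that they were separate cultures, so the spread behind each p-value may be technical and is that of these samples only. Values are log2 array values as deposited. For a gene with several probe sets, the one with the highest mean over the 6 arrays stands for the gene.

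Both arrays of number 1 were brighter than the others, with 8158 to 8645 probe sets above a log2 value of 3 against 2761 to 3731 on the other 4 arrays. Values under 3 are called dim here, and the size of a difference between dim values is poorly measured. Number 1 was the highest of its group in both treatments for 7 of the 8 condensin genes, as it was for 88.4% of the genes with a mean above 3. Of the myeloid markers measured, NPM1 and CEBPA lay above 3 on every array, ELANE on 5, MEIS1 on the 2 arrays of number 1, and MPO, CD34, KIT and ANPEP on none. Of 13 T cell, B cell, erythroid and epithelial markers, CD79A and CDH1 exceeded 3 on 1 array each and the others on none.

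All 8 condensin genes had lower mean log2 values with Vorinostat than with DMSO, most clearly NCAPH, NCAPG2 and SMC2, whose means were 3.14-fold, 2.74-fold and 2.09-fold lower. Much of that size lay in dim values. With values below 3 set to 3, the log2 differences of NCAPH, NCAPG2 and SMC2 were -0.98, -0.89 and -0.54, each under 2-fold. These 3 genes were also lower within each of the 3 replicate numbers. In RNA of a whole culture, a smaller share of cells carrying a transcript and less of it per cell cannot be told apart. The means of SMC4, NCAPD2, NCAPG and NCAPD3 were 1.20-fold to 1.56-fold lower, with the direction differing between numbers, and that of NCAPH2 was 1.01-fold lower. A negative mean difference was found for 53.1% of all 19775 genes and for 68.8% of the 3379 genes with a mean above 3. After quantile normalisation, which gives all arrays the same distribution, 7 of the 8 condensin genes and 1863 of those 3379 had a negative difference. No condensin probe set passed an adjusted p under 0.05 in limma (0 of 16, against 0% of all probe sets). None passed an unadjusted p under 0.05 either, in limma (0 of 16, against 0.500% of all probe sets on the lower side) or in the methods' t-test. For no condensin probe set did all 3 Vorinostat arrays lie below all 3 DMSO arrays, as they did for 2.87% of all probe sets.

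**Figure D1:**
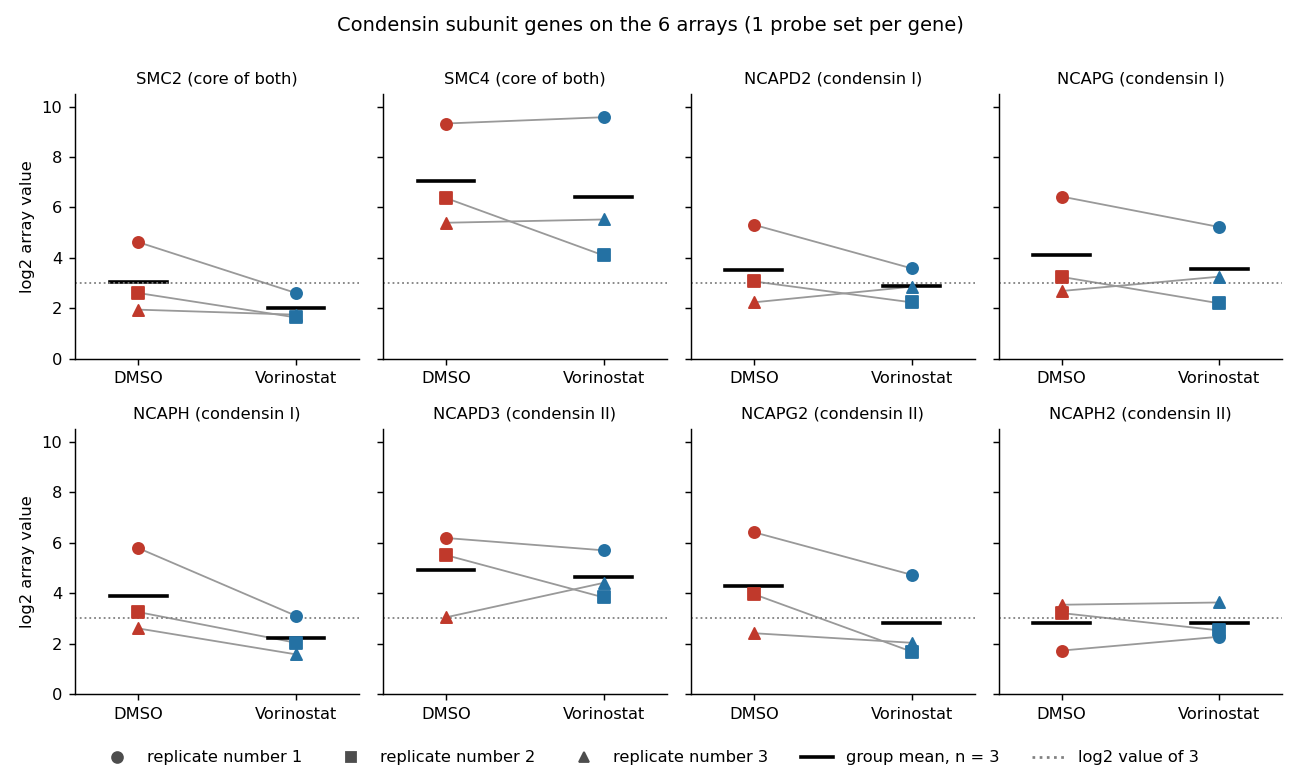
Log2 array value (vertical axis) of each condensin gene on the 6 arrays, DMSO in red and Vorinostat in blue, with grey lines joining arrays of the same replicate number, black bars for means of n = 3 and a dotted line at 3. The lines of SMC2, NCAPH and NCAPG2 slope down in all 3 numbers, from 5.79 to 3.10, 3.25 to 2.03 and 2.60 to 1.57 for NCAPH.

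Of the core ATPases, SMC2 had DMSO log2 values of 4.62, 2.60 and 1.94 on arrays 1, 2 and 3 and Vorinostat values of 2.60, 1.63 and 1.74. The groups overlapped, and only the DMSO array of number 1 was above 3. DMSO arrays averaged 3.05 ± 1.39 (SD, n = 3) on the log2 scale and Vorinostat arrays 1.99 ± 0.53 (SD, n = 3). The log2 difference was -1.07 (standard error 0.74, 95% confidence interval -2.93 to 0.80, adjusted p = 1 from limma). The other SMC2 probe set behaved alike, with differences of -2.13, -0.75 and -0.10 within numbers 1, 2 and 3, against -2.02, -0.97 and -0.21.

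SMC4, the partner of SMC2 in the core, was above 3 on all arrays, with DMSO log2 values of 9.33, 6.37 and 5.39 and Vorinostat values of 9.58, 4.09 and 5.52. Its log2 difference of -0.63 (standard error 1.74 from limma) came from number 2 alone, where it was -2.28, while numbers 1 and 3 gave 0.25 and 0.13. Its other probe sets had mean log2 differences of 0.07 and 0.09, so the 3 probe sets did not share a direction. The dimmest of the 3 was under 3 on every array.

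Among the subunits of condensin I, NCAPH, the kleisin that closes the ring, showed the largest difference of the 8 genes. Its log2 values were 5.79, 3.25 and 2.60 with DMSO and 3.10, 2.03 and 1.57 with Vorinostat. Each Vorinostat array was below the DMSO array of its number, although the brightest Vorinostat array overlapped the DMSO range. Its DMSO arrays averaged 3.88 ± 1.69 (SD, n = 3) on the log2 scale and its Vorinostat arrays 2.23 ± 0.78 (SD, n = 3). The log2 difference was -1.65 (standard error 0.93, 95% confidence interval -3.97 to 0.68, adjusted p = 1 from limma), and within the numbers it was -2.70, -1.22 and -1.03.

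NCAPD2, a HEAT-repeat subunit of condensin I, had log2 values of 5.31, 3.06 and 2.23 with DMSO and 3.58, 2.23 and 2.85 with Vorinostat. It was lower in numbers 1 and 2, with differences of -1.73 and -0.83, and higher in number 3, with 0.62. NCAPG, the other HEAT-repeat subunit, followed the same course, with 6.43, 3.24 and 2.68 with DMSO and 5.22, 2.19 and 3.25 with Vorinostat. Its log2 differences within the numbers were -1.21, -1.04 and 0.57. The second NCAPG probe set was at 7.39 and 5.16 on the number 1 arrays and between 1.60 and 1.80 on the others, so it was dim outside number 1, where the difference was -2.23. The mean log2 differences were -0.65 for NCAPD2 (standard error 0.86 from limma) and -0.56 for NCAPG (standard error 1.26 from limma).

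Among the subunits of condensin II, NCAPG2 had log2 values of 6.42, 3.96 and 2.41 with DMSO and 4.73, 1.68 and 2.03 with Vorinostat. In number 3 both of its values were dim and differed least. On the log2 scale NCAPG2 averaged 4.27 ± 2.02 (SD, n = 3) over the DMSO arrays and 2.81 ± 1.67 (SD, n = 3) over the Vorinostat arrays. The log2 difference was -1.45 (standard error 1.30, 95% confidence interval -4.73 to 1.82, adjusted p = 1 from limma), with -1.70, -2.28 and -0.38 within the numbers. NCAPG2 is the condensin subunit that the study names as decreasing on these samples, in transcript and in nearby acetylation of histone H3. Its direction here is therefore not independent evidence. The study listed it at over 2-fold with an unadjusted p under 0.05, whereas limma without the replicate numbers gave an unadjusted p = 0.312 here. That outcome depended on the fit. In limma the unadjusted p was 0.0209 with the replicate numbers as a block, described below, and 0.0403 after quantile normalisation. It stayed above 0.05 under the other 13 alternatives. The study does not state its model for the arrays.

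NCAPD3, the HEAT-repeat subunit paired with NCAPG2, was above 3 on all arrays and differed in direction between numbers. It had log2 values of 6.19, 5.51 and 3.04 with DMSO and 5.70, 3.83 and 4.41 with Vorinostat, which gave differences of -0.49, -1.67 and 1.37. The mean log2 difference was -0.27 (standard error 0.95 from limma). NCAPH2, the kleisin of condensin II, was read by 5 probe sets with mean log2 differences between -0.13 and 0.08, and 4 of them were under 3 on every array. The brightest had 1.72, 3.21 and 3.54 with DMSO and 2.27, 2.52 and 3.63 with Vorinostat. It was lowest on the number 1 arrays, the reverse of the other 7 genes, and its log2 difference was -0.02 (95% confidence interval -1.54 to 1.50 from limma).

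**Figure D2:**
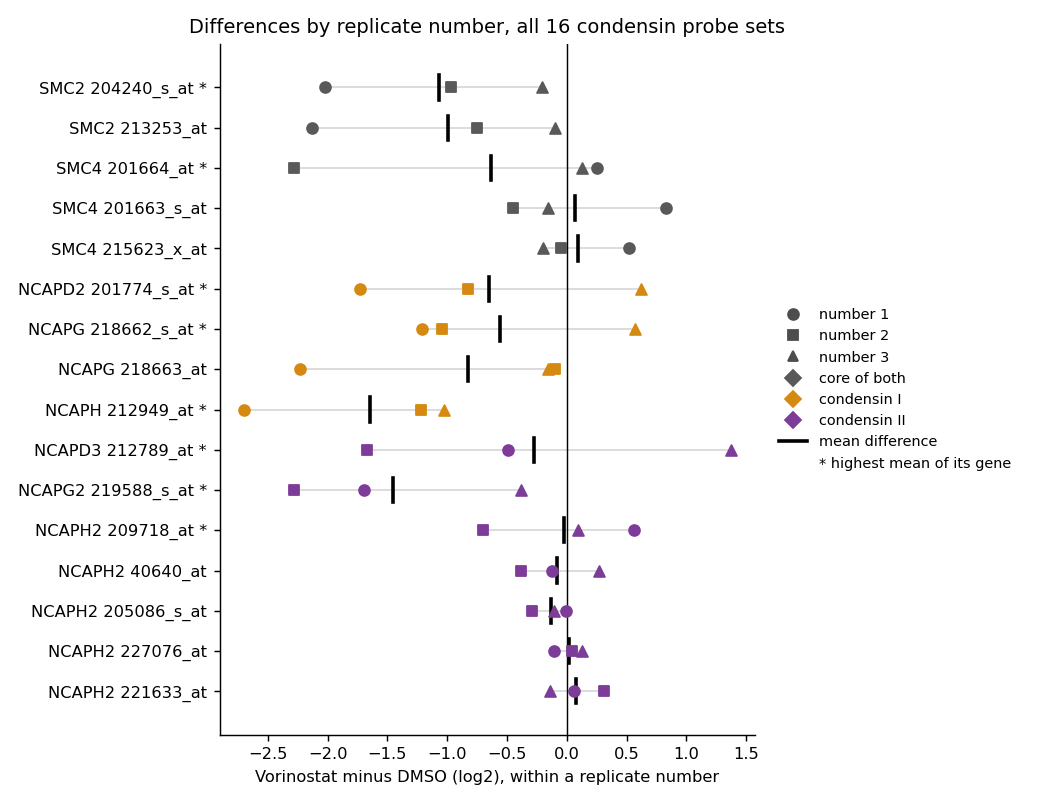
Vorinostat minus DMSO on the log2 scale (horizontal axis) for each of the 16 condensin probe sets, with 1 marker per replicate number, a black bar for the mean difference, colour for the complex and a star for the probe set that stands for its gene. All markers of SMC2, NCAPH and NCAPG2 lie left of 0, from -2.70 to -0.10, whereas NCAPD3 spans -1.67 to 1.37.

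Arrays of the same number deviated together, with correlations of 0.87, 0.60 and 0.67, so the numbers were also used as a replicate block. Numbers 2 and 3 were not told apart, with 0.59 and 0.69 across them. Their pairing follows the sample labels only, and the block p-values and the differences within numbers 2 and 3 depend on it. With that block 3 of the 16 condensin probe sets had an unadjusted p under 0.05 in limma, all lower, against 2.09% of all probe sets on the lower side. All 3 were also over 2-fold lower, as were 0.320% of all probe sets. Counted by gene, 3 of the 8 condensin genes were lower with the block, against 3.12% of all genes and 9.35% of the genes with a mean above 3. They were NCAPH (unadjusted p = 0.0110, block interval -2.68 to -0.62), NCAPG2 (unadjusted p = 0.0209, block interval -2.55 to -0.36) and SMC2 (unadjusted p = 0.0450, block interval -2.10 to -0.04), all from limma. None passed after adjustment over all probe sets, with an adjusted p = 0.887 for each of them from limma.

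These 3 of the 8 genes were lower in every replicate number, and so were 13.7% of all genes and 658 of the 3379 with a mean above 3. The trait was not particular to condensin. It was also found for 9 of 23 mitotic partners and 3 of 7 other SMC genes, both described below. Of the myeloid markers 4 of 8 had it, and of the housekeeping genes 2 of 11. Among probe sets, 6 of the 16 were lower in every number, against 14.7% of all probe sets and 19.4% of those with a mean above 3. The other probe sets among these 6 were the second ones of SMC2 and NCAPG and a dim one of NCAPH2. In number 3 the arrays of SMC2, NCAPH and NCAPG2 were all dim. With values below 3 set to 3, their differences in number 3 become 0. That 0 of the 8 genes were then lower in every number was therefore fixed by the floor. The share of all genes under that floor is not given here. Without both number 1 arrays the log2 differences were -1.12 for NCAPH, -1.33 for NCAPG2 and -0.59 for SMC2. NCAPH alone then had an unadjusted p under 0.05 in limma and was over 2-fold lower (1 of 16), against 1.83% of all probe sets lower at that p and 0.375% also over 2-fold. After quantile normalisation the differences were -1.66, -1.60 and -0.92. NCAPH and NCAPG2 then passed both criteria (2 of 16), against 0.872% of all probe sets lower at that p and 0.130% also over 2-fold.

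**Figure D3:**
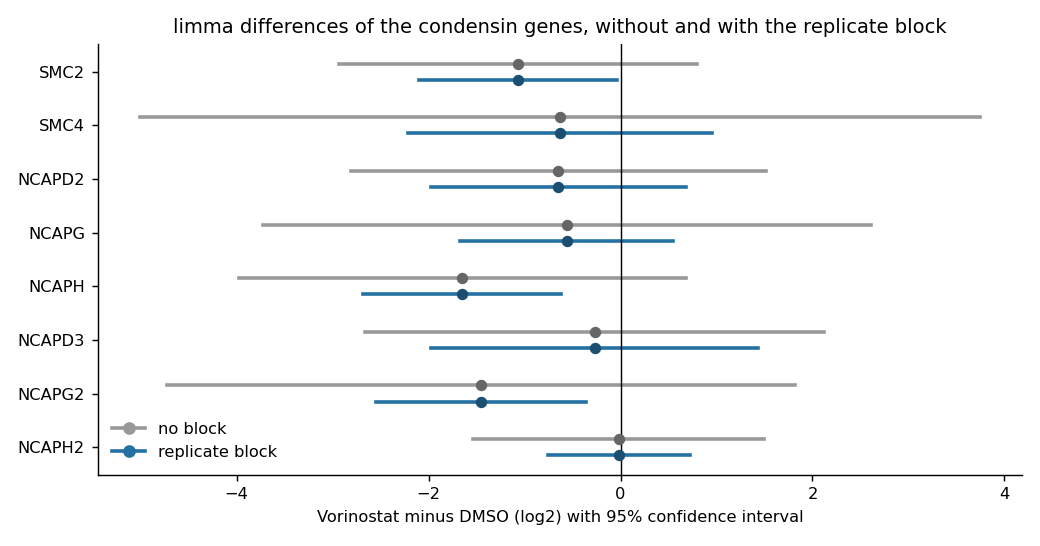
Log2 difference, Vorinostat minus DMSO, of the probe set standing for each condensin gene, with its 95% confidence interval from limma without the block (grey) and with the replicate block (blue). All grey intervals include 0, and the blue intervals of NCAPH, NCAPG2 and SMC2 end at -0.62, -0.36 and -0.04.

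Promoter sequence is shown for these 3 genes, and for NCAPG as the condensin I counterpart of NCAPG2. The windows run from 250 bases before to 50 bases after a gene's start, in the direction of the gene, and are RefSeq sequence of GRCh38.p14. Capitals mark any of 5 motifs searched on both strands. CCAAT is the box bound by NF-Y, TTTGAA and TTCGAA are forms of the element through which the DREAM complex holds cell cycle genes silent, and TTCCCGC and TTGGCGC are parts of E2F sites. The windows lie at chr2:96335516-96335815 (plus strand) for NCAPH, chr7:158704755-158705054 (minus strand) for NCAPG2, chr9:104094059-104094358 (plus strand) for SMC2 and chr4:17810729-17811028 (plus strand) for NCAPG.
NCAPH: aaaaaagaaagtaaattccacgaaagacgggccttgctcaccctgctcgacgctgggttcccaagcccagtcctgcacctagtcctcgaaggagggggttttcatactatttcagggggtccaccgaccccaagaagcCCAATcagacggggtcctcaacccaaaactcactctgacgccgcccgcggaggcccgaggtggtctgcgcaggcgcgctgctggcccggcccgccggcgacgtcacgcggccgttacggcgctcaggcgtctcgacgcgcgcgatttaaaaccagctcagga
NCAPG2: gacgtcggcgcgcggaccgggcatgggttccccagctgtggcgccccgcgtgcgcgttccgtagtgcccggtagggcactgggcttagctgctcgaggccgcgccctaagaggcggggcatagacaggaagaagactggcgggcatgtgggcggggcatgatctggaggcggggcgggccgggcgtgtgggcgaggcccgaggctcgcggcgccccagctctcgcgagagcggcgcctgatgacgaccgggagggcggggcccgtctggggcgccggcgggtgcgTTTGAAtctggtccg
SMC2: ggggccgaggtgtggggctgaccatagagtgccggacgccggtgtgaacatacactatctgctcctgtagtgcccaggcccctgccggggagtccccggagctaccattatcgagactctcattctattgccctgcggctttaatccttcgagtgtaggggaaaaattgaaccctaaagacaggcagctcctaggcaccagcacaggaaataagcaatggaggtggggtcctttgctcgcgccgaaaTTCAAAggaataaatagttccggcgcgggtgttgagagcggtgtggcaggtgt
NCAPG: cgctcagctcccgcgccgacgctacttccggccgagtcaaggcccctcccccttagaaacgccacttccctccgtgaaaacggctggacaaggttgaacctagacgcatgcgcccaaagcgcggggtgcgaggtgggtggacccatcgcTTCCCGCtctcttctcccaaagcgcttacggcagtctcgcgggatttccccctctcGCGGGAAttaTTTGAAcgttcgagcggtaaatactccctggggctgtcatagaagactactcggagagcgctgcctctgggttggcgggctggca

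The reference table held 10 windows for 7 of the 8 genes and none for NCAPH2. TTTGAA was in 6 of these 10 windows, 1 each of NCAPG2, NCAPG, SMC2, SMC4, NCAPD2 and NCAPD3, against 15.2% of all 35116 windows. It began 35 bases before the start of NCAPG, 3 bases before that of SMC2, and at base 36 after that of NCAPG2. The other SMC2 window, chr9:104094377-104094676 (plus strand), held none of the 5 motifs. CCAAT was in 3 of the 10 windows, those of NCAPH, NCAPD2 and NCAPD3, against 34.6% of all windows. TTCCCGC was in 2, of NCAPG and NCAPD3, against 6.55%. TTCGAA and TTGGCGC were in none, against 1.45% and 3.04%. No matches overlapped. NCAPH, with the largest difference, held CCAAT but not TTTGAA, so the 3 genes lower in every number did not share a motif of those searched. A match is a run of letters and does not show binding.

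Condensin I and condensin II were compared through the median difference of their own subunits, 3 genes each. The median log2 difference was -0.65 for condensin I and -0.27 for condensin II, and condensin I minus condensin II was -0.38. Within number 1 the medians were -1.73 and -0.49, with condensin I lower. Within numbers 2 and 3 condensin II was the lower one, with -1.67 against -1.04 and 0.09 against 0.57. The order of the complexes therefore turned between the replicate numbers. After quantile normalisation condensin I was the lower in number 2 as well, with -1.27 against -0.67, and the higher in number 3, with 0.50 against -0.30. Leaving out both number 1 arrays gave 0.07 for condensin I minus condensin II. With probe sets of a mean above 3 only, which drops NCAPH2, it was 0.21, and without DMSO replicate 1 it was 0.62. Each complex held 1 gene lower in every number, NCAPH in condensin I and NCAPG2 in condensin II.

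Genes that act with condensin on mitotic chromosomes had mostly negative differences too. Of 24 listed, 23 were measured and 21 had a negative mean difference, with a median of -0.59. The shares given above were 53.1% of all genes and 68.8% of genes with a mean above 3. CSNK2A2, among the 21, differed by -1.61, -0.12 and 0.24, although the study lists it as increasing on these samples. At an unadjusted p under 0.05 in limma 0 of the 23 were lower and 0 higher. With the block 6 of 23 were lower and 0 higher. The shares on the lower side were 3.12% of all genes and 9.35% of genes with a mean above 3. Of these 6, PPP2R1A was above 3 on 1 array and TOP2A and AURKB on 2. CDK1 and CDCA2 were above 3 on 5 arrays and PPP2CA on 6. CDK1, the mitotic kinase that phosphorylates condensin, differed by -1.63, -1.15 and -0.77 within the numbers on the log2 scale. KIF4A, a chromokinesin of the chromosome axis, differed by -2.32, -0.54 and 0.01, and PLK1, a mitotic kinase, by -1.48, -0.10 and 0.15. Both were above 3 on 1 array only. AURKA, a spindle pole kinase, was above 3 on 6 arrays and differed by 0.04, -2.18 and -0.17. TOP2A, the topoisomerase of the chromosome axis, differed by -1.78, -1.01 and -0.18, and is named here after its values were seen. It was above 3 on the 2 arrays of number 1 only. INCENP, a scaffold of Aurora B, and the chromatin anchor AKAP8 were the genes with a positive mean difference, 0.04 and 0.08. INCENP was above 3 on no array and AKAP8 on 2.

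Of the other SMC family, 5 of 7 genes had a negative difference, with a median of -0.25. The share was 53.1% over all genes and 68.8% over genes with a mean above 3, a mean that only 2 of the 7 had. None passed an unadjusted p under 0.05 in limma, and with the block 2 of 7 were lower and 0 higher, against the same 3.12% and 9.35% of genes. These were SMC1A of cohesin and SMC5, which acts in DNA repair. Their log2 differences within the numbers were -2.11, -1.75 and -1.20 for SMC1A and -0.96, -0.23 and -0.37 for SMC5. SMC1A was above 3 on 5 arrays and SMC5 on 1, so the SMC5 differences in numbers 2 and 3 lay between dim values. SMC1A is on the study's own list of decreasing genes for these samples. SMC6, the partner of SMC5, differed by -1.58, 0.78 and 0.04, and SMC3, the partner of SMC1A, by -1.61, -0.01 and -0.05. Of these, SMC6 was above 3 on 1 array and SMC3 on the 2 arrays of number 1. SMC1B, the meiotic cohesin gene, and SMCHD1, a factor of X inactivation, had positive mean differences of 0.09 and 0.40. They were above 3 on no array and on the 2 arrays of number 1, respectively.

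The genes whose 3 differences lay nearest to those of NCAPG2, among the 41 genes of the partner, SMC and housekeeping lists, were CCNB1, BIRC5 and PPP2CA. CCNB1, the cyclin of CDK1, differed by -1.22, -2.26 and -0.04, a root mean square distance of 0.34 from NCAPG2 on the log2 scale. CCNB1 and NCAPG2 were above 3 on the same 3 arrays only, so part of their likeness lay between dim values. BIRC5, of the chromosomal passenger complex, differed by -1.07, -2.26 and 0.29, at a distance of 0.53. PPP2CA, a phosphatase subunit, differed by -1.43, -1.32 and -0.10, at a distance of 0.60. BIRC5 and PPP2CA were above 3 on 6 arrays. Distances over all genes are not given here.

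Housekeeping genes had lower values as well, mostly in number 2. All 11 measured had a negative mean difference, as 8 did after quantile normalisation. PGK1, 1 of the 11, is on the study's own list of decreasing genes for these samples. The housekeeping medians were 0.07, -1.70 and -0.31 within numbers 1, 2 and 3, against -1.45, -1.13 and 0.11 for the 8 condensin genes. PPIA, a peptidyl-prolyl isomerase, differed by 0.07, -3.19 and -0.86, B2M, the light chain of MHC class I, by 0.48, -2.82 and -0.52, GAPDH, a glycolytic enzyme, by 0.07, -1.88 and -0.31, and HPRT1, of purine salvage, by -0.25, -1.56 and -0.92. After quantile normalisation the housekeeping medians were 0.05, -0.75 and -0.23 and those of the condensin genes -0.84, -1.20 and -0.22, so the order of these groups in number 2 turned with the scaling. In number 1 the housekeeping median was close to 0 on both scales. Genes with a mean above 3 had medians of -0.15, -0.73 and 0.20. The part of this shift in the differences of the condensin genes was not tested.

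**Figure D4:**
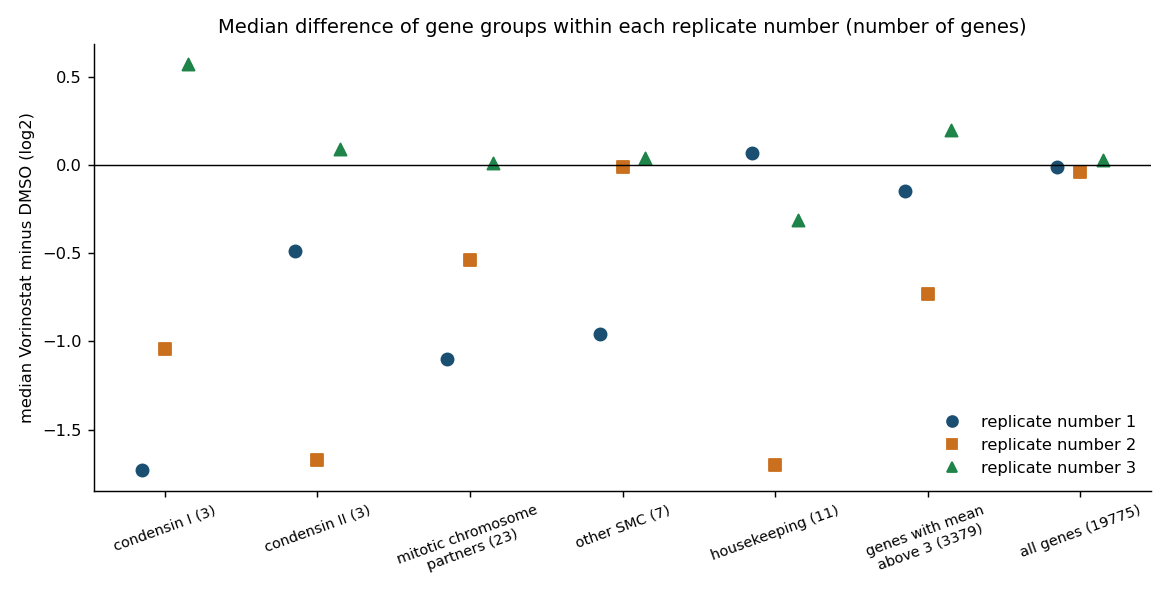
Median Vorinostat minus DMSO on the log2 scale (vertical axis) for each gene group (horizontal axis, number of genes in brackets), with 1 marker per replicate number. Condensin I has medians of -1.73, -1.04 and 0.57 and condensin II of -0.49, -1.67 and 0.09, while housekeeping genes stand at 0.07, -1.70 and -0.31.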

How the data were processed

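RNA of 3 DMSO and 3 Vorinostat samples of OCI-AML3 was measured on 6 arrays. The authors deposited log2 values per probe set and array. Per their methods the array files were imported into Partek Genomics Suite. The submitters' notes name MAS5 and RMA, whose role, order and versions are not given in the sources used here. The values ranged from 0.868 to 13.8. The arrays differ in their upper percentiles, which no further step had evened out. Of 54675 probe sets, 62 controls were left out and 54613 tested. Symbols of probe sets naming 1 gene were updated by gene identifier to RefSeq.

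Vorinostat was compared with DMSO by limma 3.58.1 in R 4.3.3 (lmFit, eBayes) with p-values adjusted by Benjamini-Hochberg over every tested probe set, and the script was tested on simulated data. With 3 arrays a group, the smallest two-sided p of an exact permutation test is 0.1, and none is reported. The study's threshold, over 2-fold with an unadjusted p under 0.05, was also used. No p was computed for medians over members. Members and lists were chosen with earlier results of these data known. All members were named, with up to 4 genes per direction of each list by smallest unadjusted p and the 3 nearest to NCAPG2. Listed genes without a probe set for them alone were not analysed here. Deviations of same-numbered arrays from their group means correlated at 0.87, 0.60 and 0.67 over probe sets, above the level of 0.1 at which numbers were taken to pair samples. Numbers 2 and 3 were not told apart, with 0.59 and 0.69 across them. Alternatives were the replicate block, quantile normalisation, median centring, a floor or filter at 3, a trend in eBayes, Student's t-test, gene means and leaving out arrays. The number of arrays limits the precision.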

Additional observations from a re-analysis of the deposited data

How the results depend on the processing

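Over the 15 alternatives, 0 condensin probe sets passed an adjusted p under 0.05. The count of 0 at an unadjusted p under 0.05, and of 0 when also over 2-fold, became 3 with the replicate block. It became 2 with quantile normalisation (NCAPH and NCAPG2) and 1 with both number 1 arrays left out (NCAPH). When any single array was left out it was 0. The shares of all probe sets lower at that p and over 2-fold were 0.320% with the block, 0.130% with quantile normalisation and 0.375% without number 1. NCAPH, NCAPG2 and SMC2 were lower under every alternative that could give their value, with log2 differences from -2.29 to -0.69, -2.41 to -0.38 and -1.62 to -0.29. SMC2 and NCAPH2 had no value under the filter at 3. The count of 3 genes lower in every number was 0 with values below 3 set to 3. The floor fixed this outcome, since the number 3 arrays of SMC2, NCAPH and NCAPG2 were all dim. With single arrays left out, the count of genes lower in every remaining number ranged from 3 to 6. It was 6 without DMSO replicate 3 or Vorinostat replicate 3, where numbers 1 and 2 remain. Being lower in 2 numbers is a weaker criterion than in 3. The share of all genes meeting it is not given here, so these counts have no background. NCAPD3 turned to 0.09 with quantile normalisation. With single arrays left out SMC4 ranged from -2.22 to 0.52, NCAPD2 from -1.30 to 0.24, NCAPG from -1.39 to 0.60, NCAPD3 from -1.20 to 0.37 and NCAPH2 from -0.57 to 0.34. The first 4 turned positive without DMSO replicate 1, which leaves the bright Vorinostat replicate 1 in 1 group only. The condensin I median ranged from -1.39 to 0.24, that of condensin II from -1.20 (without DMSO replicate 3) to 0.13, and condensin I minus condensin II from -1.03 to 0.62. The cause of these turns was not tested. Dim values limit SMC2 most, with 1 array above 3. They also limit NCAPH2, NCAPH, NCAPG2, NCAPD2 and NCAPG, each dim on 2 to 3 of the 6 arrays. The other probe sets of NCAPH2 were dim on every array.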
